A study of Mus musculus with 17 samples.

Results

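Transcripts of 10 genes widely used to mark macrophages or all leukocytes were followed through kidney aging and tubular cell senescence. The genes were Adgre1, Csf1r, Cd68, Lyz2, Mrc1, Cd14, Cx3cr1, Mertk, Ptprc (CD45) and Cd53. They were chosen by name, with earlier results of these data known, and each symbol matched 1 of the 53313 gene identifiers common to the 17 count tables. RNA had been sequenced from 4 cultures of non-senescent PTEC, 4 cultures of senescent PTEC, and the kidneys of 3 mice each at 3, 12 and 24 months of age. PTEC are primary tubular epithelial cells. They were grown in REGM2 medium from tubule fragments that had been released with collagenase from kidneys of C57BL/6Rj mice (spelled C57BL/6JRj in the study's methods) and passed through a cell strainer, and no sort against leukocytes is named. Non-senescent PTEC were taken at day 6 without irradiation and senescent PTEC at day 16 after 10 Gray of γ-irradiation, so that irradiation and time in culture cannot be told apart. The kidneys came from untreated male mice of the same wild-type strain, and part of the right kidney was used. Nothing in the labels states whether same-group cultures came from separate mice, so p-values from PTEC measure the spread between these cultures, which may be technical.

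Macrophages of the kidney lie in the interstitium between the tubules and depend on the receptor Csf1r, which binds the growth factors Csf1 and Il34. Leukocytes carry on their surface the phosphatase CD45, the product of Ptprc, and the tetraspanin CD53, whereas Adgre1, an adhesion receptor, and the fractalkine receptor Cx3cr1 mark mononuclear phagocytes more narrowly. Other genes of this group are less restricted: Cd14, Mertk and Cd68 transcripts can also be made by cells outside the leukocyte lineage. In bulk RNA, more cells of a type and more RNA per cell cannot be told apart.

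Genes took from 26963442 to 35409144 reads in a culture and from 37311247 to 66894790 reads in a kidney. Levels are CPM, the reads of a gene after TMM scaling of all 17 libraries to 1 common size, with mean ± SD over cultures (n = 4) or kidneys (n = 3). A gene was called when edgeR's quasi-likelihood test gave a Benjamini-Hochberg adjusted p under 0.05, over all genes tested, with a log2 fold change beyond 0.5 in either direction. The labelled cell type was checked against markers: 14 proximal tubule genes summed to between 211.7 and 692.2 CPM in non-senescent PTEC, against 60017 to 60835 CPM in 3-month-old kidneys, while 6 epithelial genes summed to between 2418 and 3381 CPM in the same cultures and between 1540 and 2006 CPM in these kidneys. The 19 T and NK cell genes summed to at most 3.46 CPM in any culture. Some other leukocyte lists were not near 0 in non-senescent PTEC. There 28 macrophage genes beside the members summed to between 51.3 and 109.0 CPM, against 106.6 to 170.0 CPM in 3-month-old kidneys. For 6 monocyte genes the sum was between 33.9 and 62.7 CPM, against 13.6 to 32.8 CPM. For 16 other genes shared by leukocytes it was between 50.8 and 68.5 CPM, against 155.4 to 160.8 CPM. When the counts of same-age kidneys were compared, the second kidney stood apart at each age: the chi-square per gene was 254 and 258 against 17.1 between the others at 12 months, 111 and 342 against 77.7 at 3 months, and 130 and 126 against 43.6 at 24 months. Values without such a kidney are given where it changed a result. The 3-month-old kidneys had been counted on another gene set than the older kidneys, which share 1 set, so that gene set and age cannot be told apart in comparisons with 3 months.

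Promoters are shown for the members whose 250 bases upstream of the RefSeq start lie outside every annotated exon, Cd53, Cd68 and Mertk, of which Cd68 fell in senescent PTEC and Cd53 and Mertk were not called there without pairing of the cultures. Of the 10 genes, 7 had an entry in the RefSeq promoter table (GRCm38.p6), and Adgre1, Csf1r and Cd14 did not match. Sequences run 5′ to 3′ on the gene's strand and end at the base before the start. Capitals mark GAGGAA, a core bound by the myeloid factor PU.1, or its reverse complement TTCCTC, and the GC box GGGCGG or its reverse complement CCGCCC.
Cd53, chr3:106790150-106790399, minus strand: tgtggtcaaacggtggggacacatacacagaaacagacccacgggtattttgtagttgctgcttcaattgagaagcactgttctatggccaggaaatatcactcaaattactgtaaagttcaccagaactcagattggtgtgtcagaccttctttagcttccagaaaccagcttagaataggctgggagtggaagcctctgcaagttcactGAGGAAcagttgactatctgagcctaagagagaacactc
Cd68, chr11:69666171-69666420, minus strand: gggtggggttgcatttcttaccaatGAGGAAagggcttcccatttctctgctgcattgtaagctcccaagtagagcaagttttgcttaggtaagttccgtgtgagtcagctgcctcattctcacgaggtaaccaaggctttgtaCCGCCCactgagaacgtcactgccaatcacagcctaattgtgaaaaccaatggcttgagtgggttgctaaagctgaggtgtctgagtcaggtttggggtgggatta
Mertk, chr2:128698665-128698914, plus strand: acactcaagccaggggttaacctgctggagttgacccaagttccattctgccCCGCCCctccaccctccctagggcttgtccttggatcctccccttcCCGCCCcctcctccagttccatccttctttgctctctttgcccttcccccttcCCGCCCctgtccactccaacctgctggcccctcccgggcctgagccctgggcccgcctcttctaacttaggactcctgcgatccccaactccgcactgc
The GAGGAA letters stood once in the Cd53 window and once in the Cd68 window, and in neither orientation in that of Mertk, which held 3 GC boxes and had a GC content of 63.6%. The Cd68 window held 1 GC box at a GC content of 49.2%, and the Cd53 window none at 45.2%. Over both strands, GAGGAA was found in 4 of the 8 member windows (those of Cd53, Cd68, Mrc1 and 1 of the 2 Ptprc starts) and in 23.3% of 32851 promoters of the same length. The GC box was found in 3 member windows and in 32.7% of all promoters. Matches of one motif did not overlap those of the other in these windows, and a match describes the sequence and does not show binding.

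Members differed widely in level. Compared per kilobase of exon, Lyz2, the lysozyme secreted by macrophages and other myeloid cells, was the highest member in every group, with 21.2 ± 8.31 CPM per kb in non-senescent PTEC and 36.5 ± 33.2 CPM per kb in 3-month-old kidneys. In non-senescent PTEC it was followed by Cd14 at 16.5 ± 2.49, Cd68 at 9.05 ± 1.94 and Csf1r at 4.52 ± 1.05 CPM per kb. All other members lay near or below 1 CPM per kb in these cultures, from Cd53 at 1.01 ± 0.836 down to Ptprc at 0.156 ± 0.0350 and Cx3cr1 at 0.0792 ± 0.0179 CPM per kb. In 3-month-old kidneys the order after Lyz2 was Mertk at 11.9 ± 0.874 CPM per kb, Csf1r at 11.5 ± 5.59, Cd14 at 4.71 ± 1.60, Cd68 at 2.39 ± 0.134, Cd53 at 1.96 ± 1.34, Adgre1 at 1.42 ± 0.367 and Cx3cr1 at 1.01 ± 0.194. Mrc1 and Ptprc came last with 0.389 ± 0.155 and 0.356 ± 0.105 CPM per kb. Of the neighbours in this order, Mertk and Csf1r, and Mrc1 and Ptprc, differed by less than the SD of either gene. Lyz2 and Mertk, Cd68 and Cd53, and Cd53 and Adgre1 differed by more than the smaller SD of the pair but less than the larger one. Exon length here joined all annotated exons of a gene, 18313 bases for Ptprc against 6371 for Mrc1. A gene whose transcripts hold only part of these bases is placed too low, so the low place of Ptprc depends on the length used.

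**Figure D1:**
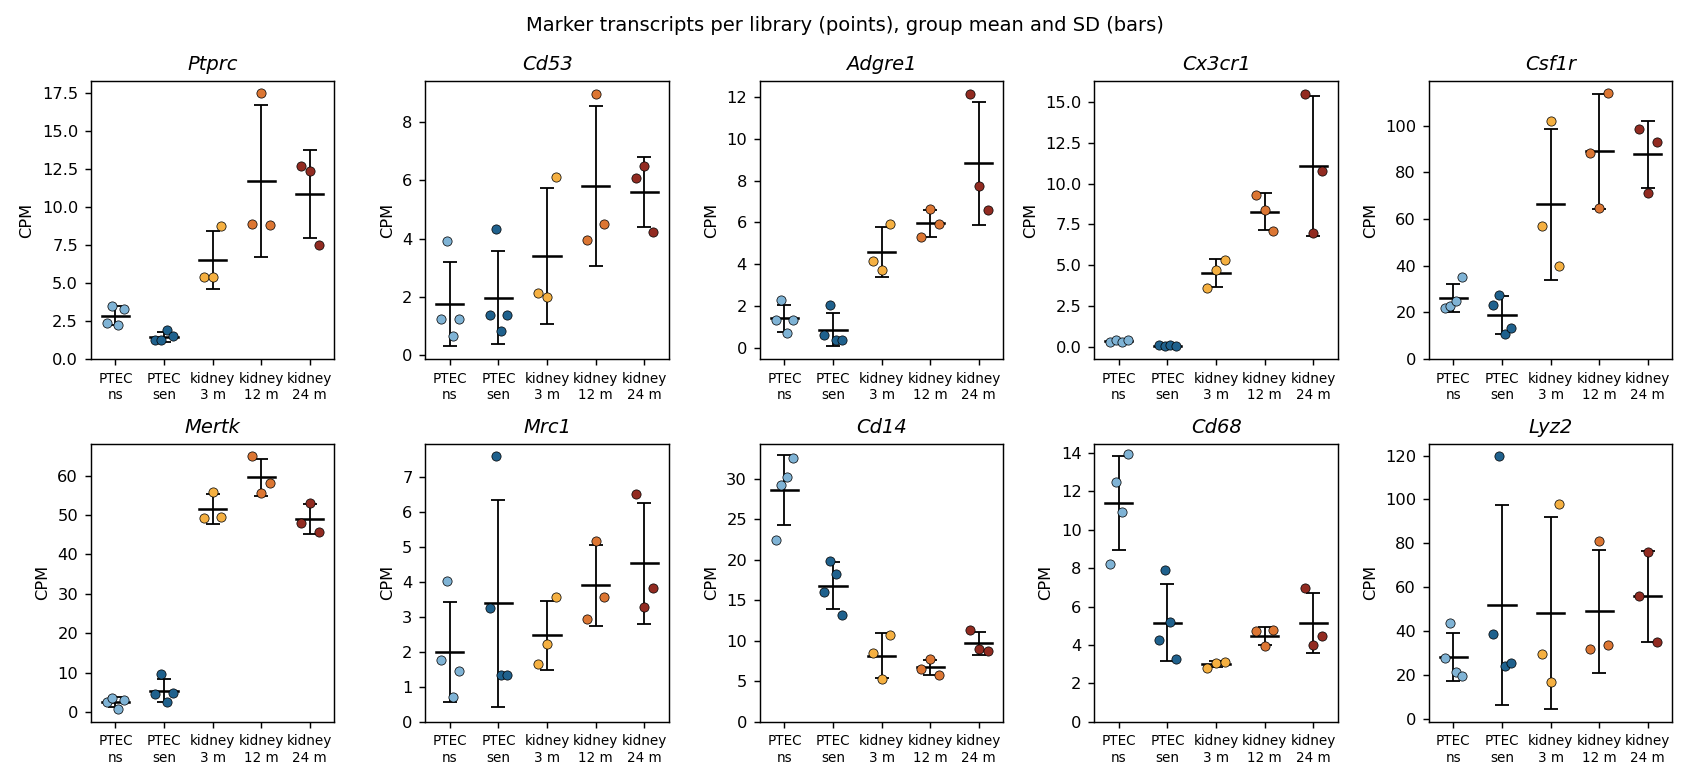
Level of each of the 10 members in CPM (linear axis, 1 panel per gene) in every library of non-senescent (ns) and senescent (sen) PTEC and of kidneys at 3, 12 and 24 months. Points are libraries, wide lines group means and thin bars the SD. Cd14 and Cd68 are highest in non-senescent PTEC, whereas Cx3cr1 is nearly absent from PTEC and reaches 15.5 CPM in a 24-month-old kidney.

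The first question was how the level of these markers in cultured tubular cells compares with the young organ. Cx3cr1 and Mertk, a receptor kinase through which macrophages take up dying cells, were far lower in PTEC than in kidney, and Adgre1, Csf1r and Ptprc were lower too. Cd68, a lysosomal glycoprotein, and Cd14, a co-receptor for lipopolysaccharide, went the other way and were higher in PTEC. Lyz2, Mrc1 and Cd53 were not called. With 3-month-old kidneys set against non-senescent PTEC, 5 members were called higher in kidney and 2 lower, where 32.7% of 16118 tested genes were called higher and 33% lower. Cx3cr1 is among the 5 and in the median below, although it was tested here only because the kidneys were in the fit. The median log2 fold change over the 10 members was 1.01, against -0.05 over all genes tested, and it was 0.45 when scaled by library size alone and 0.53 without the third 3-month-old kidney.

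Mertk (chr2:128698956-128802894, plus strand, GRCm38) reached 51.5 ± 3.79 CPM in 3-month-old kidneys and 2.53 ± 1.26 CPM in PTEC at day 6, a difference of 4.28 on the log2 scale (SE 0.425). Cx3cr1 (chr9:119901616-120069879, minus strand) reached 4.54 ± 0.873 against 0.357 ± 0.0804 CPM, a log2 fold change of 3.60 (SE 0.340). It had 9 to 17 reads in these cultures and did not pass the filter on low counts within PTEC, so no conclusion is drawn from its call. For Adgre1 (chr17:57358691-57483527, plus strand) the log2 fold change was 1.63 (SE 0.392, edgeR adjusted p = 0.00343). In all, 5 members, with Cx3cr1 among them, lay wholly above and 2 wholly below their PTEC values in kidney, against 33.6% and 30.8% of all genes. Csf1r was higher in kidney by 1.30 (SE 0.315, edgeR adjusted p = 0.00368) and Ptprc by 1.13 (SE 0.304, edgeR adjusted p = 0.00667), but scaled by library size alone the same differences were 0.74 (adjusted p = 0.0567) and 0.58 (adjusted p = 0.115), and without the second 3-month-old kidney that of Csf1r was 0.83 (adjusted p = 0.0155). Cd68 (chr11:69664213-69666153, minus strand) was lower in kidney by a log2 fold change of -1.98 (SE 0.269), with 3.00 ± 0.168 CPM against 11.4 ± 2.44 CPM in PTEC. Cd14, on chromosome 18, was lower in kidney by -1.87 (SE 0.277), with 8.15 ± 2.78 against 28.6 ± 4.31 CPM. For Cd53 the difference of 0.88 (SE 0.597) was not called, though it came to 1.64 (edgeR adjusted p = 0.0132) without the second non-senescent culture and to 0.17 without the third 3-month-old kidney. Adjusted p for Csf1r ranged from 7.71e-05 to 0.0567 and for Ptprc from 0.000708 to 0.115 over all settings tried. Tissue, culture and library batch cannot be told apart in this comparison.

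The next question was whether the markers changed when PTEC became senescent. Ptprc, Cd68 and Cd14 fell, and no member was called higher in the fit of all 8 cultures without pairing. With pairing Lyz2, Mertk and Mrc1 were called higher, and Mertk also without senescent culture 3 or without both cultures numbered 3. Over same-numbered cultures, Adgre1, Cd68, Cd14, Cx3cr1 and Ptprc were lower in all 4 pairs, Lyz2, Mertk and Cd53 were higher in all 4, Mrc1 was higher in 3 of 4, and Csf1r was higher in 2 and lower in 2. Of the 10 members 9 passed the filter on low counts, and 3 of these were called lower and 0 higher, where 19.7% of 15434 tested genes were called lower and 20.1% higher. At an unadjusted p under 0.05 there were 4, the fourth being Mertk, which was higher, where 51.6% of all genes passed. DESeq2 called 4 lower, with Cx3cr1 among them, and 0 higher, where it called 10.7% of 30570 genes lower and 11.5% higher. The median log2 fold change of the 9 was -0.46, against -0.002 over all genes tested, or -0.77 without senescent culture 2. The labels do not state whether same-numbered cultures were pairs, so the fit with the replicate number as a block is given beside the main one. Under that assumption it called 7 members, 3 higher and 4 lower, where it called 23.2% of all genes higher and 21.3% lower.

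Ptprc (chr1:138062861-138175708, minus strand) was measured at 2.37, 3.51, 2.24 and 3.30 CPM in non-senescent cultures 1 to 4 and at 1.24, 1.22, 1.88 and 1.5 CPM in senescent cultures 1 to 4. The groups did not overlap, and the smallest gap was in culture 3. Ptprc had a log2 fold change of -0.94 (SE 0.254, edgeR adjusted p = 0.0141), and the adjusted p was 0.0505 without senescent culture 1, 0.0675 without the cultures numbered 1, 0.102 without those numbered 2 and 0.0624 without those numbered 4. Cd53 (chr3:106759921-106790149, minus strand), the other marker of all leukocytes, behaved differently. Its levels were 1.24, 3.90, 0.654 and 1.23 CPM in non-senescent cultures and 1.39, 4.32, 0.812 and 1.36 CPM in senescent cultures. Each culture thus differed little from its same-numbered partner, with log2 ratios between 0.15 and 0.31, while culture 2 lay far above the others in both states. The log2 fold change of Cd53 was 0.19 (SE 0.633, edgeR adjusted p = 0.834). With 1 culture left out it ranged from -0.55, without senescent culture 2, to 0.94.

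Among the lysosomal and secreted products, Cd68 fell from 8.23, 12.5, 10.9 and 13.9 CPM to 4.27, 7.91, 5.19 and 3.26 CPM in cultures 1 to 4. All senescent values were below all non-senescent ones. Cd68 had a log2 fold change of -1.12 (SE 0.284, edgeR adjusted p = 0.0107), and without the cultures numbered 4 it was -0.84 with an adjusted p of 0.0604. Lyz2 (chr10:117277331-117282321, minus strand) showed 27.5, 43.5, 21.4 and 19.4 CPM in non-senescent and 38.7, 119.6, 23.9 and 25.4 CPM in senescent cultures. The groups overlapped, and senescent culture 2 was more than all others. The log2 fold change of Lyz2 was 0.92 (SE 0.512, edgeR adjusted p = 0.173) in the main fit and 0.65 (adjusted p = 0.0271) with the replicate block, and the main value was 0.10 without senescent culture 2. Lyz1, a near-identical copy of Lyz2 that could take or give reads, was at 0 to 3 reads per culture and 7 to 44 reads per kidney.

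Of the surface receptors, Cd14 stood at 22.5, 29.3, 30.3 and 32.5 CPM in non-senescent and 16.0, 19.8, 18.2 and 13.2 CPM in senescent cultures. The groups did not overlap, and the log2 fold change was -0.75 (SE 0.172, edgeR adjusted p = 0.00659). Cx3cr1 was at the edge of detection in PTEC, with 12, 17, 9 and 14 reads in non-senescent and 4, 1, 5 and 1 reads in senescent cultures. It did not pass the filter on low counts and was not tested in the main fit. Its exons overlap 78 bases of Gm33858 on the other strand. Without the filter its log2 fold change was -2.35 (SE 0.520, edgeR adjusted p = 0.00274), and by DESeq2 -2.41 (adjusted p = 0.00158). Counting Cx3cr1, 4 of 10 members were lower in every senescent culture than in any non-senescent culture and 0 were higher, where 20.6% and 21.3% of all genes behaved so.

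Adgre1 was at 1.33, 2.26, 0.716 and 1.31 CPM in non-senescent and at 0.632, 2.03, 0.384 and 0.374 CPM in senescent cultures. Every culture was below its partner, but the groups overlapped because both cultures numbered 2 were high. Adgre1 had a log2 fold change of -0.70 (SE 0.574, edgeR adjusted p = 0.352) in the main fit, -0.90 (adjusted p = 0.0386) with the replicate block and -1.58 (adjusted p = 0.0215) without senescent culture 2. Its adjusted p ranged from 0.0215 to 0.653 over all settings. Mertk went the other way, with 2.59, 3.61, 0.747 and 3.15 CPM in non-senescent and 4.55, 9.71, 2.67 and 4.84 CPM in senescent cultures. Its log2 fold change of 1.13 (SE 0.496) had an adjusted p of 0.0922 by edgeR without and 0.00364 with the replicate block, where it was 1.17, and 0.0449 without senescent culture 3. Without senescent culture 2 the value was 0.69, and the adjusted p had a range from 0.00364 to 0.283. Even the highest culture was below the 45.6 CPM of the lowest kidney.

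Mrc1 (chr2:14229392-14332057, plus strand), the mannose receptor of resident macrophages, was at 1.75, 4.03, 0.716 and 1.46 CPM in non-senescent and at 3.26, 7.60, 1.35 and 1.34 CPM in senescent cultures. The ratio was nearly equal in cultures 1 to 3, with log2 values between 0.89 and 0.92, and -0.13 in culture 4. The log2 fold change was 0.78 (SE 0.650, edgeR adjusted p = 0.357), or 0.69 (adjusted p = 0.0452) with the replicate block. Without senescent culture 2 the log2 fold change of Mrc1 was 0.0096, and without non-senescent culture 2 it was 1.38. Csf1r, on chromosome 18, was at 22.0, 22.6, 24.8 and 35.0 CPM in non-senescent and at 23.4, 27.7, 10.6 and 13.2 CPM in senescent cultures. Cultures 1 and 2 were slightly higher and cultures 3 and 4 clearly lower after senescence, and the log2 fold change of -0.46 (SE 0.305, edgeR adjusted p = 0.252) was not called with or without the block, and lay between -0.71 without senescent culture 2 and -0.25 without senescent culture 3. Exons of Csf1r overlap those of Hmgxb3 on the opposite strand over 873 bases. Hmgxb3 was expressed at 54.1 ± 3.00 CPM in non-senescent PTEC, above Csf1r itself, and the strand setting of the count is not given in the sources used here, so part of the Csf1r reads may belong to Hmgxb3.

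**Figure D2:**
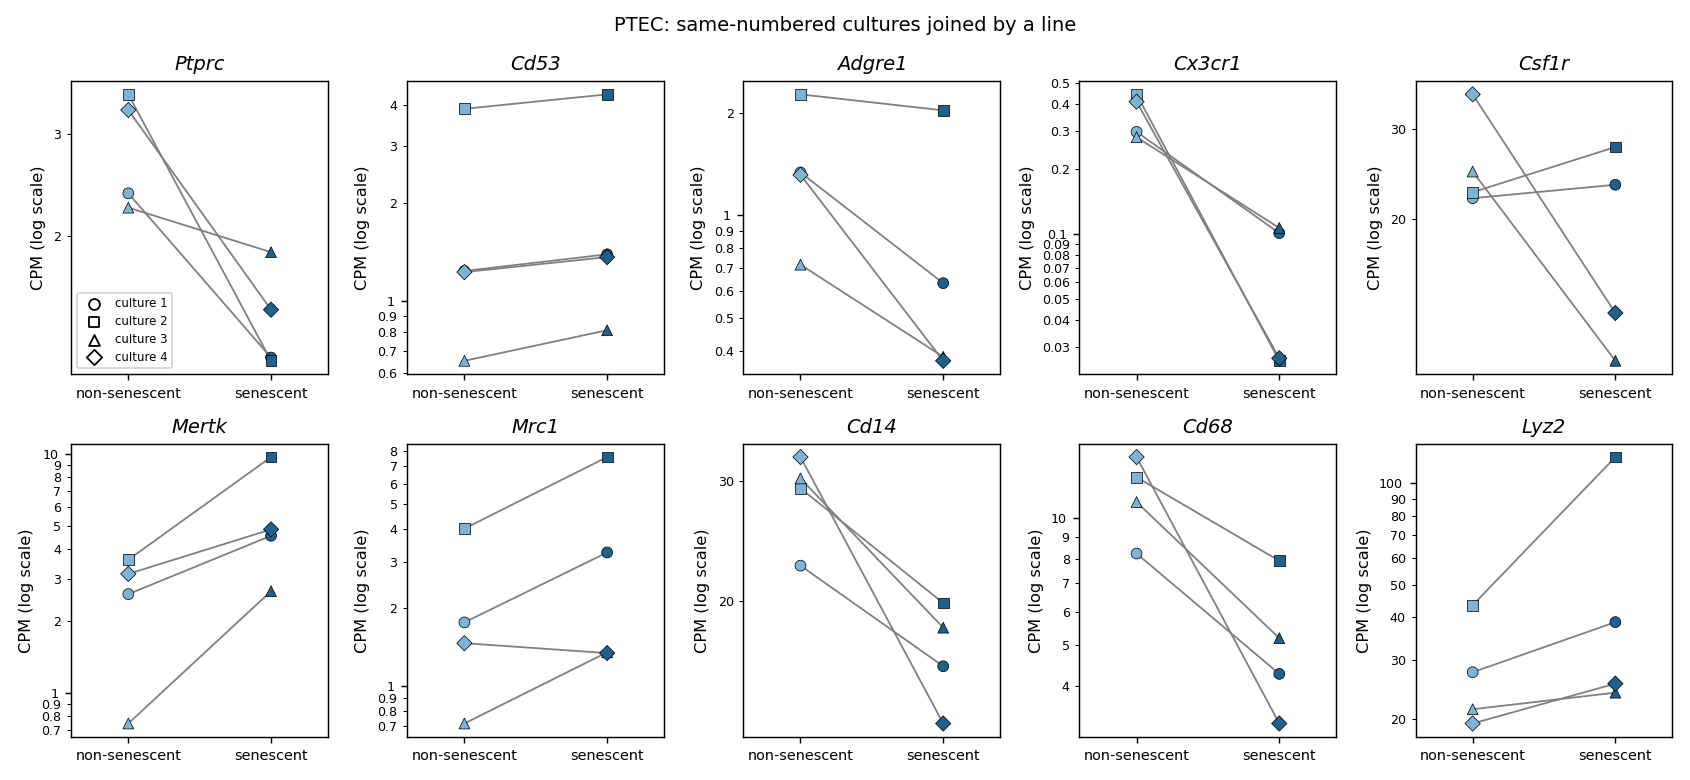
CPM (log axis, 1 panel per gene) of the 10 members in non-senescent and senescent PTEC. Lines join cultures with the same replicate number and symbols mark cultures 1 to 4. Lines fall in all 4 pairs for Ptprc, Cd14, Cd68, Adgre1 and Cx3cr1 and rise in all 4 for Lyz2, Mertk and Cd53, and culture 2 (squares) is the highest non-senescent culture for 7 members and the highest senescent one for 8.

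Among 28 other macrophage genes 21 were tested, of which 1 rose and 3 fell after senescence, where 20.1% of all genes were called higher and 19.7% lower. Their median log2 fold change was -0.15. Marco, a scavenger receptor, rose by 2.06 (SE 0.431, edgeR adjusted p = 0.00404). The scavenger receptor Msr1 fell by 1.52 (SE 0.548, edgeR adjusted p = 0.0461), and the myeloid transcription factors Spi1, which encodes PU.1, and Irf8 fell by 1.26 (SE 0.347) and 1.33 (SE 0.258). Of 16 other genes shared by leukocytes 10 were tested, 1 rose and 4 fell. Those that fell were the actin regulators Coro1a (-1.78) and Lcp1 (-0.68), the integrin chain Itgb2 (-1.25) and the signalling regulator Arhgdib (-1.86), and Cytip rose by 0.83 (SE 0.242). Summed over the 16 genes, CPM ranged from 50.8 to 68.5 in non-senescent and from 32.8 to 47.5 in senescent cultures, without overlap.

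Ligands of Csf1r and Mertk were among the genes that rose. Of 11 ligands and partners of the receptors, 4 were called higher and 0 lower in senescent PTEC, where 20.1% of all genes were called higher and 19.7% lower. The median log2 fold change of the 11 was 0.25. Csf1, the ligand of Csf1r, rose from 143 ± 6.41 to 368 ± 85.2 CPM, a log2 fold change of 1.39 (SE 0.177, edgeR adjusted p = 0.000282), while Il34, its other ligand, was not called (0.42, SE 0.157, adjusted p = 0.0522). Gas6 and Pros1, which bridge Mertk to dying cells, rose by 1.58 (SE 0.320) and 1.57 (SE 0.285). Lbp, which hands lipopolysaccharide to Cd14, rose by 1.11 (SE 0.222). The Cx3cr1 ligand Cx3cl1 (0.10), the kinases Axl (0.25) and Tyro3 (0.21), and the Cd14 partners Tlr4 (0.14), Ly96 (0.06) and Tlr2 (0.24) were not called.

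Markers of other cell types moved with senescence as well. Of 10 fibroblast and pericyte genes, 6 rose and 1 fell among 9 tested, where 20.1% of all genes were called higher and 19.7% lower. The sum of the 10 genes was between 122.5 and 244.6 CPM before and between 461.6 and 936.0 CPM after senescence. The smooth muscle actin Acta2 (3.52) and the surface protein Thy1 (3.26) had the largest log2 fold changes, Pdgfrb, a growth factor receptor of pericytes, rose by 1.48, and the proteoglycan gene Cspg4 fell by 1.25. Of 14 proximal tubule genes 7 were tested and 4 of these fell (Kap, -3.19, Hnf4a, -2.98, Slc5a2, -2.41, and Gatm, -2.15), 0 rose. The epithelial cadherin gene Cdh16 fell by 0.71 and the endothelial receptor gene Kdr by 1.01. Of 6 monocyte genes 3 were tested and Chil3 rose by 3.71 (SE 0.674, edgeR adjusted p = 0.00190), and of 8 dendritic cell genes the 1 tested, Zbtb46, rose by 1.002 (SE 0.209, edgeR adjusted p = 0.00395). Neutrophil genes were near 0, with S100a9 and Camp without a read in any culture and a sum of at most 0.965 CPM, and the 1 tested, Ly6g, fell by 2.43 (SE 0.486, edgeR adjusted p = 0.00320). Of the T cell genes, Cd3d and Cd3g had no read in any culture. The part of these shifts in the changes of the 10 members was not tested.

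In kidneys the question was whether the markers rise with age, since MHC class II genes are carried by macrophages and the study asked whether tubular cells express them too. Between 3 and 24 months, 9 of 10 members had a higher mean and Mertk a slightly lower one. No member was called by edgeR: 0 of 10, where 1.89% of 17067 tested genes were called higher and 0.451% lower. At an unadjusted p under 0.05 there were 4 (Adgre1, Cd68, Mrc1 and Cx3cr1), where 18.2% of all genes passed, and DESeq2 called 2, Adgre1 and Cx3cr1, both higher, where it called 2.42% of 30029 genes higher and 1.03% lower. The median log2 fold change of the members was 0.73, against 0.001 over all genes tested. The 24-month values of Adgre1, Cd68 and Cx3cr1 all lay above the 3-month values, which holds for 12% of all genes, and 0 members lay wholly below, against 9.84%.

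Cx3cr1 showed the largest difference, with 3.58, 4.73 and 5.30 CPM at 3 months, 9.33, 8.42 and 7.09 CPM at 12 months and 15.5, 6.96 and 10.8 CPM at 24 months. All older kidneys were above all 3-month-old kidneys, while the 12- and 24-month values overlapped. Between 24 and 3 months its log2 fold change was 1.29 (SE 0.292, edgeR adjusted p = 0.0604). Its adjusted p was 0.00239 by DESeq2, 0.0314 without a filter on low counts and 0.0329 without the second 24-month-old kidney, over a range from 0.00239 to 0.243. Adgre1 was at 4.13, 3.7 and 5.94 CPM at 3 months, 5.31, 6.63 and 5.92 CPM at 12 months and 12.2, 7.73 and 6.57 CPM at 24 months. Its 24-month values did not overlap the 3-month values, and the first 24-month-old kidney was the highest. The log2 fold change was 0.95 (SE 0.270, edgeR adjusted p = 0.119), or 0.64 without that kidney, and the adjusted p was 0.0355 by DESeq2, over a range from 0.0355 to 0.360. Adgre1, Csf1r and Cd14 carry different identifier versions in the gene sets of 3-month-old and older kidneys.

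Cd68 was at 2.81, 3.07 and 3.12 CPM at 3 months, 4.75, 3.93 and 4.75 CPM at 12 months and 6.94, 4.0 and 4.48 CPM at 24 months. Both older ages lay wholly above the young one, and the log2 fold change between 24 and 3 months was 0.78 (SE 0.232, edgeR adjusted p = 0.130), or 0.50 without the first 24-month-old kidney. Mrc1 was at 1.65, 2.21 and 3.57 CPM at 3 months, 2.95, 5.19 and 3.58 CPM at 12 months and 6.51, 3.28 and 3.82 CPM at 24 months. The groups overlapped, and the log2 fold change was 0.88 (SE 0.371, edgeR adjusted p = 0.258), or 0.52 without the same 24-month-old kidney.

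Ptprc was at 5.42, 5.41 and 8.75 CPM at 3 months, 8.87, 17.5 and 8.84 CPM at 12 months and 12.7, 12.4 and 7.52 CPM at 24 months. The third 3-month-old kidney was above the third 24-month-old kidney, and the second 12-month-old kidney was the highest of all 9. Ptprc differed by 0.74 on the log2 scale (SE 0.338, edgeR adjusted p = 0.286) between 24 and 3 months. Cd53 was high in the same kidneys, with 2.13, 1.99 and 6.10 CPM at 3 months, 3.95, 8.97 and 4.51 CPM at 12 months and 6.06, 6.49 and 4.22 CPM at 24 months. Its log2 fold change was 0.72 (SE 0.474, edgeR adjusted p = 0.414), or 1.44 (adjusted p = 0.162) without the third 3-month-old kidney and 0.45 without the second.

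The other members had smaller log2 fold changes between 24 and 3 months when all kidneys were used. Lyz2 varied within each age by more than between ages, from 16.8 to 98.0 CPM at 3 months, 31.9 to 81.2 CPM at 12 months and 34.9 to 76.1 CPM at 24 months, and its log2 fold change was 0.22 (SE 0.631). With 1 kidney left out that value ranged from -0.18 to 1.27. Csf1r lay between 39.8 and 102 CPM at 3 months and between 71.4 and 98.9 CPM at 24 months, with a log2 fold change of 0.40 (SE 0.345). That of Csf1r was 0.87 (edgeR adjusted p = 0.0985) without the second 3-month-old kidney, which had the 102 CPM, and 0.14 without the third. Cd14 was at 5.23 to 10.8 CPM and at 8.74 to 11.3 CPM (0.25, SE 0.256), with log2 fold changes from 0.022 to 0.50 when 1 kidney was left out. Mertk stood out by its small spread, with 49.1, 55.8 and 49.4 CPM at 3 months and 48.1, 53.1 and 45.6 CPM at 24 months, a log2 fold change of -0.07 (SE 0.130).

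**Figure D3:**
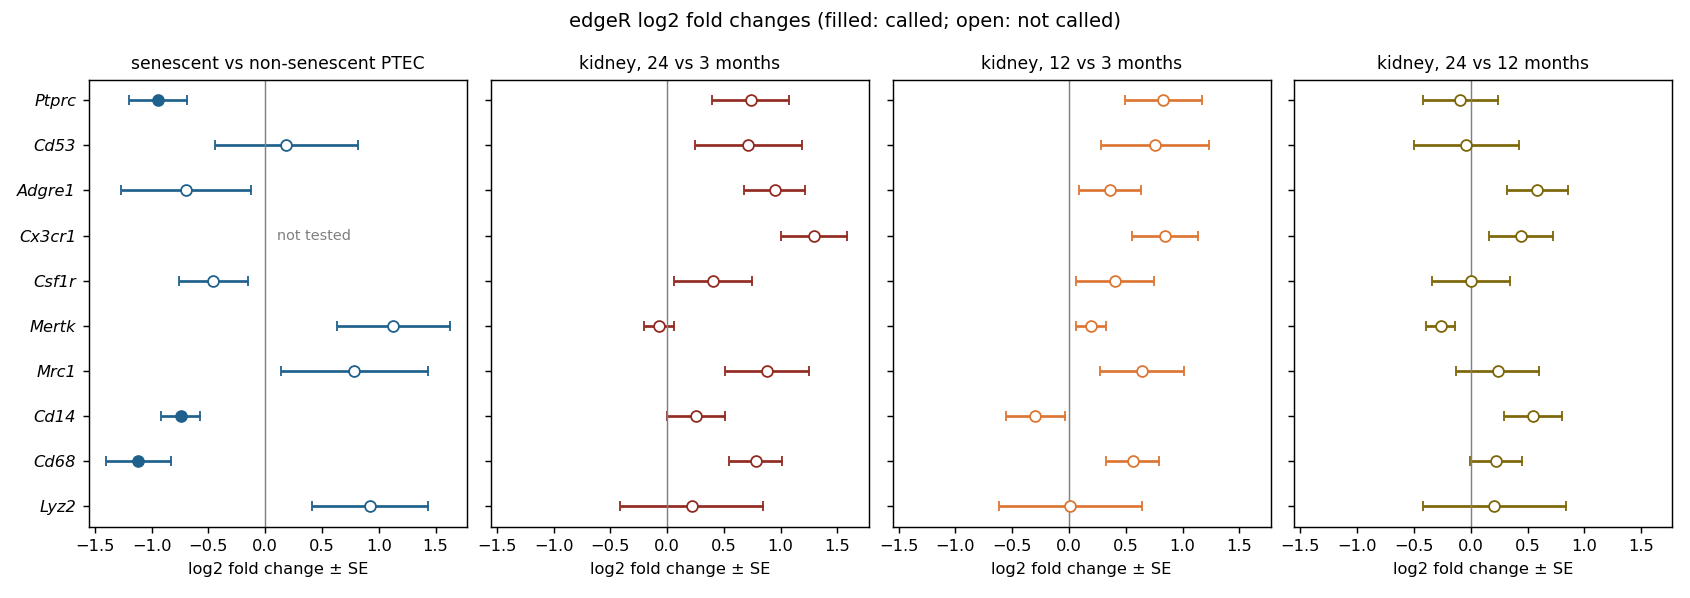
log2 fold change ± SE (edgeR) of the 10 members in senescent against non-senescent PTEC and between the kidney ages, 1 panel per comparison. Filled circles are called genes and open circles genes that were not called, and Cx3cr1 was not tested in PTEC. The called members are Ptprc, Cd14 and Cd68, all lower in senescent PTEC, while in kidney the values at 24 against 3 months lie right of 0 except for Mertk.

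Between 3 and 12 months the edgeR count was again 0 of 10, where 1.22% of genes were called higher and 1.36% lower. DESeq2 also called 0, and 3 members (Cd68, Cx3cr1 and Ptprc) had an unadjusted p under 0.05, where 16.5% of all genes did. The same 3 genes were the ones whose 12-month values all lay above the 3-month values, against 11.5% of all genes, and 0 members lay wholly below, against 8.81%. Their log2 fold changes were 0.56 (SE 0.233), 0.85 (SE 0.291) and 0.83 (SE 0.338), with edgeR adjusted p of 0.264, 0.173 and 0.256. Without the second 12-month-old kidney the value of Ptprc was 0.43 and that of Cd53 went from 0.76 to 0.30, whereas without the third 3-month-old kidney Cd53 was at 1.47. The median over the members was 0.48, or 0.78 without the third 3-month-old kidney. This comparison shares the 3-month-old kidneys with the one above, so they are not independent.

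Between 12 and 24 months, where all kidneys share 1 gene set, edgeR and DESeq2 called 0 of 10 members and 0 had an unadjusted p under 0.05, where 0.896% of genes were called higher, 0.434% lower and 15.2% passed the unadjusted threshold. The median log2 fold change was 0.21, or -0.08 without the first 24-month-old kidney, 0.03 without the first 12-month-old kidney and 0.43 without the second. Adgre1 (0.59, SE 0.267, edgeR adjusted p = 0.341) and Cd14 (0.55, SE 0.256, edgeR adjusted p = 0.355) had the largest differences upward, that of Adgre1 being 0.28 without the first 24-month-old kidney, and Mertk (-0.27, SE 0.130, edgeR adjusted p = 0.373) the largest downward. Cd14 at 24 months lay wholly above and Mertk wholly below the 12-month values, as did 12.7% and 12.8% of all genes. Same-numbered kidneys of these ages deviated together, and in a fit of these ages alone with the replicate block, added after seeing the data, Cd14 was called (0.54, edgeR adjusted p = 0.0452, over a range from 0.0452 to 0.750), where this fit called 7.77% of all genes higher and 5.41% lower. The kidneys came from separate mice, so the design gives no basis for this block, and no conclusion is drawn from the call.

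Other leukocyte genes were called where the members were not. Of 28 other macrophage genes 23 were tested and 5 rose between 3 and 24 months, where 1.89% of all genes were called higher, with a median log2 fold change of 0.97. The largest were Siglec1, a sialic acid receptor of macrophages, at 1.98 (SE 0.364, edgeR adjusted p = 0.0272) and Mpeg1, a pore-forming protein of phagocytes, at 1.47 (SE 0.213, edgeR adjusted p = 0.0121), and the smallest were C1qc at 1.05 (SE 0.211) and Irf8 at 1.08 (SE 0.139). Of 16 other genes shared by leukocytes 5 rose, with a median of 0.81, from Hcls1 (1.31) and Vav1 (1.4) to Rac2 (1.59) and the tetraspanin Cd37 (1.85). Of the 11 ligands and partners 0 were called by edgeR, 7 having an unadjusted p under 0.05, where 18.2% of all genes did. Csf1 (0.97, SE 0.229, adjusted p = 0.0691), Il34 (0.74, SE 0.181, adjusted p = 0.0753), Cx3cl1 (0.86), Gas6 (0.66), Pros1 (0.51), Axl (0.73) and Tlr2 (0.54) had higher values at 24 months, Lbp differed by 0.31, and Tyro3 (-0.66), Tlr4 (-0.40) and Ly96 (-0.30) had lower ones. Between 3 and 12 months Il34 rose by 1.12 (SE 0.182, edgeR adjusted p = 0.0223) and Tyro3 fell by 1.52 (SE 0.270, edgeR adjusted p = 0.0292).

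Lymphocyte genes moved with age too. Of 19 T and NK cell genes 17 were tested and 3 rose (Cd3e, Cd3g and Cd4), where 1.89% of all genes were called higher. Among the B and plasma cell genes Cd79a, Cd22 and Fcrla rose. Of 10 B and plasma cell genes 9 were tested, 7 with a higher and 2 (Cd79b and Mzb1) with a lower value at 24 months. These genes summed to between 3.47 and 8.81 CPM at 3 months and between 21.3 and 132.7 CPM at 24 months, but most of the later sum was Jchain, the joining chain of secreted antibodies, at 55.0 ± 57.8 CPM, which was not called (edgeR adjusted p = 0.0703). Without Jchain the sums were between 2.92 and 5.58 CPM and between 6.42 and 11.4 CPM. The T and NK cell sum was between 7.78 and 9.81 CPM at 3 months and between 15.3 and 21.04 CPM at 24 months. Ptprc and Cd53 are expressed by these cells as well as by macrophages, and the share of each cell type in their level was not tested. The dendritic cell receptor gene Xcr1 rose by 1.51 (SE 0.234, edgeR adjusted p = 0.0148), 1 of 8 genes of its list. Markers of other kidney cells differed with age as well. Of 14 proximal tubule genes 4 rose (Slc5a2, 1.88, Slc5a12, 1.56, Gatm, 1.02, and Miox, 0.74) and the median was 0.46, although the sum of the list was between 60017 and 60835 CPM at 3 months and between 51461 and 57214 CPM at 24 months. Most of that sum was Kap, at 43848 ± 5212.7 CPM at 3 months and 30879.5 ± 3674.4 CPM at 24 months. Kap was not called (-0.50, edgeR adjusted p = 0.117). Of 10 fibroblast and pericyte genes 9 had a higher value at 24 months and 0 were called, with a median of 0.60. An unadjusted p under 0.05 was reached by 5 of them, where 18.2% of all genes did so. The part of these shifts in the values of the members was not tested.

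Whether the members vary together was examined over the 9 kidneys as the correlation of log2 CPM with Ptprc, 9 relations in all, with exact two-sided permutation tests and Benjamini-Hochberg adjustment. Cd53 followed Ptprc most closely, with Pearson's r = 0.94 (exact p = 0.000234, adjusted 0.00211) and Spearman's ρ = 0.90 (exact p = 0.00203, adjusted 0.0183). Mrc1 had r = 0.82 (exact p = 0.00712, adjusted 0.0320), Lyz2 r = 0.77 (exact p = 0.0162, adjusted 0.0471) and Adgre1 r = 0.74 (exact p = 0.0209, adjusted 0.0471). Their ρ was 0.72, 0.65 and 0.70, with exact p of 0.0369, 0.0666 and 0.0433, and none of the 3 passed the adjustment. Cx3cr1 (r = 0.61, ρ = 0.57), Cd68 (r = 0.53, ρ = 0.58) and Cd14 (r = 0.36, ρ = 0.33) did not pass by exact test, with adjusted p of 0.143, 0.215 and 0.434 for r and 0.181, 0.181 and 0.495 for ρ. Mertk (r = 0.06, ρ = 0.05) and Csf1r (r = -0.07, ρ = -0.02) were near 0 over the 9 kidneys together, with exact p of at least 0.849.

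These relations rested in part on few kidneys. Without the 2 kidneys farthest from the median of Ptprc, the second 12-month-old and the second 3-month-old, r was 0.89 for Cd53 (exact p = 0.00853, adjusted 0.0768), 0.86 for Adgre1 (adjusted 0.0946), 0.79 for Mrc1 and 0.59 for Lyz2, and none passed the adjustment. Within the 6 older kidneys, which share 1 gene set, r was 0.97 for Cd53 (exact p = 0.00972, adjusted 0.0875) and 0.92 for Lyz2 (exact p = 0.0264, adjusted 0.119), but 0.41 for Adgre1, and again none passed. Csf1r, near 0 over all kidneys, had r = -0.69 (exact p = 0.140, adjusted 0.421) and ρ = -0.37 (exact p = 0.497) in these 6, and r = -0.66 (permutation p adjusted 0.0931) over the 9 kidneys with each age centred on its mean. The 3-month-old kidneys alone are too few for a correlation. With each age centred on its mean, 2 relations passed, and leaving out 1 kidney in turn left between 1 and 3.

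**Figure D4:**
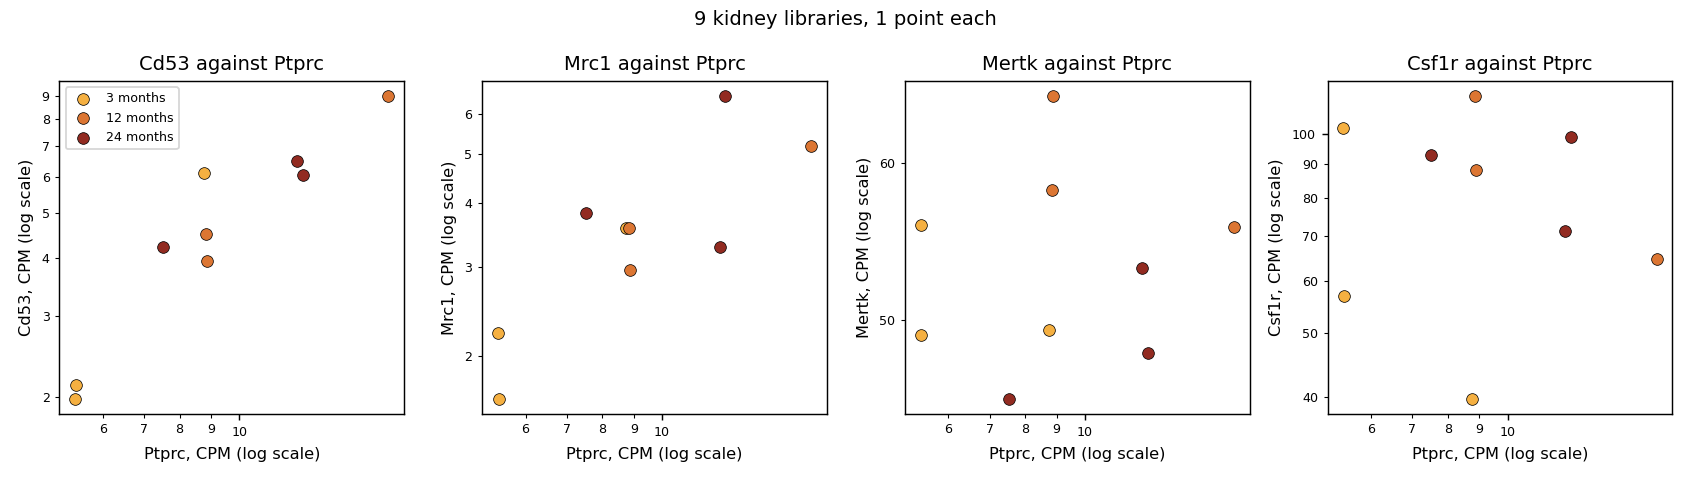
CPM of Cd53, Mrc1, Mertk and Csf1r against CPM of Ptprc (both axes log) in the 9 kidneys, coloured by age, 1 point per library. Cd53 and Mrc1 rise with Ptprc (r = 0.94 and 0.82), while over all 9 kidneys r is 0.06 for Mertk and -0.07 for Csf1r.

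Of 17067 genes, those with a pattern most like Ptprc over the 9 kidneys were Fgl2, Dock10, 4930578C19Rik, Dennd1c and 3222401L13Rik, with r from 0.97 to 0.98. As a description, the genes most like Adgre1 included the complement genes C1qa (r = 0.95) and C1qc (r = 0.95) together with Osmr, Rab7b and Cd72. Csf1r again differed, its closest genes being Trim37, Map4k2, 4833413G10Rik, Cers6 and Smurf1 with r of 0.98 or above, none of them a gene of the leukocyte lists. Hmgxb3, which overlaps Csf1r on the other strand, had r = 0.86 with Csf1r, at 28.9 to 45.5 CPM in 3-month-old and 28.9 to 47.2 CPM in older kidneys. The second kidney of each age, which stood apart, had the highest Csf1r at 3 months and the lowest at 12 and 24 months. Adgre1 and Csf1r shared none of these 5 closest genes. Csf1r and Lyz2, both used as macrophage genes, had r = -0.62 with each other over the same kidneys. Over the 6 kidneys left without the second of each age, r with Csf1r was 0.95 for Hmgxb3 and -0.57 for Lyz2, and between 0.986 and 0.996 for the 5 genes closest to it. The part of Hmgxb3 reads in the level of Csf1r was not tested. These correlations were picked among many genes. Depth rose with age, from 37311247 to 49471409 reads at 3 months, through 54097073 to 59718029 at 12 months, to 62761670 to 66894790 at 24 months. The part of depth, gene set and batch in these correlations was not tested.

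Since the study concerns MHC class II genes, their level relative to the leukocyte markers was compared between ages. Of 5 such genes, Cd74 (1.30), H2-Aa (1.10), H2-Eb1 (1.06) and H2-Ab1 (0.93) rose between 3 and 24 months by edgeR. Of all genes tested, 1.89% were called higher, and gene set and age cannot be told apart here. In log2 CPM, Cd74 exceeded Ptprc by 4.83, 5.37 and 4.11 in the 3-month-old kidneys, by 5.35, 3.75 and 5.47 in the 12-month-old kidneys and by 5.41, 4.85 and 5.73 in the 24-month-old kidneys. The groups overlapped. The mean ratio was 5.33 ± 0.446 at 24 months and 4.77 ± 0.632 at 3 months, a difference of 0.56 (exact two-sided permutation p = 0.2, where 0.1 is the smallest p that 3 against 3 kidneys allow). The ratio of Cd74 to Adgre1 differed by 0.37 (exact p = 0.4). For H2-Ab1 and H2-Eb1 the ratios to Ptprc differed by 0.19 (exact p = 0.5) and 0.32 (exact p = 0.3), and those to Adgre1 by 0.0027 (exact p = 1) and 0.13 (exact p = 0.5). Between 12 and 3 months the ratios to Ptprc differed by 0.05 to 0.09 (exact p = 0.9 for each of the 3 genes) and the ratios to Adgre1 by 0.45 to 0.50, with the smallest possible exact p of 0.1 for H2-Ab1 and H2-Eb1 and 0.3 for Cd74. Without the second 12-month-old kidney, left out after its high Ptprc was seen, the ratios to Ptprc differed between 12 and 3 months by 0.64 for Cd74, 0.36 for H2-Ab1 and 0.40 for H2-Eb1, and that of Cd74 to Adgre1 by 0.80. None of the 12 comparisons of all kidneys could pass a threshold of 0.05.

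In senescent PTEC 3 of the 5 MHC class II genes were tested and all 3 were called higher, where 20.1% of all tested genes were. H2-Aa, which rose in kidney, was not among those tested. Cd74 rose by 3.22 (SE 0.557, edgeR adjusted p = 0.00147), H2-Eb1 by 2.85 (SE 0.459, edgeR adjusted p = 0.000988) and H2-Ab1 by 1.63 (SE 0.449, edgeR adjusted p = 0.0156). Of the members, Ptprc, Cd68, Cd14, Adgre1 and Cx3cr1 were lower in all 4 pairs of cultures, whereas Lyz2, Mertk and Cd53 were higher in all 4. Without pairing, only the falls of Ptprc, Cd68 and Cd14 were called in the main fit. Levels of the MHC class II genes in senescent PTEC were nevertheless low, at 2.28 ± 1.44, 2.15 ± 0.954 and 1.68 ± 0.772 CPM, against 176 ± 41.2 CPM for Cd74 in 3-month-old kidneys.

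Whether a member responded differently to senescence in PTEC and to age in kidney was tested as the difference of both log2 fold changes, senescent minus non-senescent and 24 minus 3 months, in 1 fit of all 17 libraries. In this test 4 members were called, all with the lower value in PTEC, where 12.2% of 17999 genes were called lower and 11.6% higher. The differences were -1.92 (SE 0.394, edgeR adjusted p = 0.00214) for Cd68, -1.70 (SE 0.423, edgeR adjusted p = 0.00802) for Ptprc and -1.02 (SE 0.315, edgeR adjusted p = 0.0271) for Cd14. The remaining call was Cx3cr1, at -3.65 (SE 0.537). It had 1 to 17 reads per culture and did not pass the filter on low counts in PTEC. It was tested here only because the kidneys were in the fit, so no conclusion is drawn from its call. For Cd14 the adjusted p was 0.0518 without senescent culture 1, 0.0562 without senescent culture 4 and 0.0547 without the first 24-month-old kidney. Adgre1 (-1.67, SE 0.676, edgeR adjusted p = 0.0834) was called without senescent culture 2 (-2.54, adjusted p = 0.00235), and Csf1r (-0.89, SE 0.478, edgeR adjusted p = 0.196) without the second 3-month-old kidney (-1.4, adjusted p = 0.0310). Mertk (1.17, SE 0.541), Lyz2 (0.68, SE 0.852), Cd53 (-0.56, SE 0.849) and Mrc1 (-0.11, SE 0.823) were not called. The median over the members was -0.95, against 0.002 over all genes tested, or -0.56 over the members whose identifier version is the same in all gene sets.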

How the data were processed

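Stranded poly(A) libraries of PTEC and kidney RNA were sequenced in paired-end reads by the authors, who ran nf-core/rnaseq on GRCm38 and deposited whole read counts for each gene. These counts are not normalized. Aligner, counter and strand setting are not given in the sources used here. Counts were used as deposited, on the 53313 identifiers common to 3 gene sets, matched without version. Symbols, exon lengths and positions came from GENCODE M21. Tests ran in R 4.3.3 (DESeq2 1.42.0, edgeR 4.0.16, limma 3.58.1), and tables and figures were made in Python 3.11.15 (pandas 2.3.3, scipy 1.17.1, numpy 2.4.6, matplotlib 3.10.9). Separate fits (TMM, filterByExpr, robust quasi-likelihood test) were made for PTEC and for the 3 ages, and the method was tested on simulated data. CPM are on 1 scale over all 17 libraries. Correlations used log2 CPM scaled over the kidneys alone with a prior count of 2, and ratios used the CPM without a prior count.

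The members, the 13 other gene lists and the tests were chosen with earlier results of these data known. Named genes are the members, the called genes of each list in PTEC and between 24 and 3 months (the 2 largest and 2 smallest where more than 4), all ligands and partners, and the 5 genes most like Ptprc. Those most like Adgre1 and Csf1r, and Hmgxb3 and Lyz1, were added after their values were seen. One gene that the rule names is not reported here.

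The labels number PTEC of both states 1 to 4. Over 15383 genes, cultures with the same number deviated together from their group means, with r between 0.187 and 0.613 in the 4 pairs. The numbers were read as pairs, which the labels do not state. Same-numbered kidneys of 24 and 12 months correlated with r from 0.171 to 0.555, although they came from separate mice. Between 24 and 3 months r was from -0.425 to -0.055, and between 12 and 3 months from -0.705 to -0.0855. Kidneys that share a number only thus gave r as large as the cultures did. The check therefore cannot show that the cultures were pairs, and results with the replicate block rest on that assumption. Results were recomputed with other tools, scalings, filters and thresholds, the replicate block, centred ages and each library left out.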

Additional observations from a re-analysis of the deposited data

Results flagged for a closer look

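In senescent PTEC, culture 2 lay far from the other 3 cultures for 3 members, with 2.03 CPM of Adgre1, 119.6 CPM of Lyz2 and 4.32 CPM of Cd53. In 20 groups of 4 cultures tested for such a gap, about 1 in 20 would show one by chance, and the 3 values come from the same library.

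The effect of senescence in PTEC differed from the effect of age in kidney for Cd68, Cd14 and Ptprc by the test of the difference itself, with log2 values of -1.92, -1.02 and -1.70. Cx3cr1 was called too (-3.65), but it did not pass the filter on low counts in PTEC, so no conclusion is drawn from its call. In each of these genes, the senescent cultures had the lower mean and the 24-month-old kidneys the higher one. Tissue and library batch cannot be told apart in this difference.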

How the results depend on the processing

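The count of called members in PTEC, 3 in the main fit, was 1 with a log2 threshold of 1, 7 with the replicate block, 2 without the cultures numbered 1, 2 without those numbered 4, 4 without those numbered 2, 5 without those numbered 3, and between 3 and 5 with 1 culture left out. Between 24 and 3 months, where 0 were called, it was 2 by DESeq2, 1 without a filter on low counts and between 0 and 1 with 1 kidney left out (the second 24-month-old). Between 24 and 12 months it was 1 with the replicate block and the compared ages alone. Of the 4 relations with Ptprc, 2 passed with centred ages and between 1 and 3 without 1 kidney. With all ages in the fit, the replicate block left the counts between the kidney ages at 0, and it was not run for kidney against PTEC or the difference of both effects. The direction of small differences turned. Between 24 and 12 months Csf1r was 0.032 by library size alone and 0.021 with the block and these ages alone, and Cd53 was 0.026 with either block. Mrc1 in kidney against PTEC was -0.31 by library size alone, and with centred ages the correlation with Ptprc was -0.024 for Cd68 and -0.25 for Mertk. With 1 library left out, ranges that crossed 0 were -0.55 to 0.94 for Cd53 in PTEC, -0.18 to 1.27 for Lyz2 and -0.12 to 0.00054 for Mertk (24 against 3 months), -0.56 to 1.06 for Lyz2 (12 against 3 months), and between 24 and 12 months -0.074 to 0.78 for Lyz2, -0.25 to 0.31 for Ptprc, -0.25 to 0.41 for Cd53, -0.19 to 0.23 for Csf1r, -0.061 to 0.38 for Cd68 and -0.12 to 0.49 for Mrc1. The same held for Lyz2 (-0.33 to 1.11) and Mrc1 (-0.10 to 0.85) in kidney against PTEC, for Mrc1 (-0.88 to 0.48), Cd53 (-1.34 to 0.20) and Lyz2 (-0.44 to 1.01) in the difference of both effects, and for the correlation of Csf1r (-0.29 to 0.10) and Mertk (-0.080 to 0.19) with Ptprc. The cause was not tested. With 3 kidneys an age the SE of the members ran from 0.130 to 0.631, and Cx3cr1 in PTEC rested on 1 to 17 reads.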
